A study of Mus musculus with 12 samples.

Results

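Esm1 is the gene of endocan, a proteoglycan that endothelial cells secrete. It was described together with 9 other genes of vessel growth, namely the ligands Apln, Vegfa, Pgf, Angpt2 and Dll4 and the receptors Kdr, Flt1, Aplnr and Tek. The members were chosen by name, as the probes that carry 1 of these 10 gene names on a mouse expression microarray. Esm1 headed the group because its increase in challenged WT aortas on these same arrays was already known, so values from the WT challenge are given as a description without a test. The 10 genes had 14 of the 55681 probes, of which 12 were kept, and 9 of the 10 genes were among the 22769 genes tested. The exception was Aplnr, whose single probe was well above background on only 2 of the 12 arrays.

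Aortic RNA from adult male mice was measured on 12 one-colour microarrays, 3 in each of 4 groups. WT mice were homozygous for the floxed Socs3 allele (Socs3 fl/fl) and had no SM22-Cre, whereas smSocs3-KO mice were Socs3 fl/fl with SM22-Cre. The SM22 promoter drives Cre in smooth muscle, and every group carried the floxed allele. The strain was given as 129S5/SvEvBrd, C57BL6 and SJL. In both genotypes, aortas were taken without infusion (before challenge) or after 3 days of BAPN at 150 mg/kg/day with AngII at 1000 ng/kg/min from osmotic minipumps. BAPN blocks the crosslinking of collagen and elastin, and AngII is a pressor hormone. With both, the mice serve as a model of aortic dissection. Socs3 itself was not lower under the deletion label. Its mean log2 signal was 0.94 ± 0.63 (SD, n = 3) on the arrays labelled smSocs3-KO and 0.45 ± 0.25 (SD, n = 3) on WT arrays before challenge, and 3.24 ± 0.93 and 1.72 ± 0.93 (SD, n = 3 each) at day 3. Where its probe lies with respect to the floxed part is not given in the sources used here, and the genotype is therefore written as a label.

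Values are log2 of the processed signal minus the 75th percentile of the array, so that a value of 1 is a signal at double that percentile. A signal was well above background when it exceeded the background by 13 times its SD, which held for 55.4% to 61.2% of the spots of an array, and no spot was saturated. The 3 arrays per group limit the precision. Nothing states which arrays came from which animals, and the p-values measure only the spread between these arrays. Slide 1 carried the 6 WT arrays together with replicate 1 of smSocs3-KO before challenge, and slide 2 carried 5 arrays, all of them smSocs3-KO. The WT challenge was thus compared within slide 1, but at day 3 slide and genotype cannot be told apart by arrays of the same day. Replicate 4 of WT at day 3 stood apart from the other WT arrays at day 3, and results that turn on it are given with and without it.

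In a growing vessel, Vegfa binds Kdr, the main signalling receptor, and Flt1, which holds Vegfa with high affinity and signals weakly. Pgf binds Flt1 and not Kdr. A cell that leads a sprout, the tip cell, carries Dll4, the ligand that engages Notch on its neighbours, and is known to be rich in Esm1, Apln and Angpt2. Apln acts on Aplnr, a G protein-coupled receptor, while Angpt2 is a ligand of Tek (Tie2) that can oppose Angpt1. In the aorta these genes are known from the endothelium of the lumen and of the vasa vasorum, although Vegfa is made by many cell types, smooth muscle cells and macrophages among them.

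Promoters of Esm1 and Pgf are shown because these were the members whose day 3 arrays lay above the arrays before challenge in both genotypes. The sequences are from RefSeq (GRCm38.p6) and run 5′ to 3′ from 250 bases before to 50 bases after the start of the gene. Pgf has 2 starts in that table. Capitals mark the NFAT core GGAAA, read on both strands.
Esm1, chr13:113209409-113209708, plus strand: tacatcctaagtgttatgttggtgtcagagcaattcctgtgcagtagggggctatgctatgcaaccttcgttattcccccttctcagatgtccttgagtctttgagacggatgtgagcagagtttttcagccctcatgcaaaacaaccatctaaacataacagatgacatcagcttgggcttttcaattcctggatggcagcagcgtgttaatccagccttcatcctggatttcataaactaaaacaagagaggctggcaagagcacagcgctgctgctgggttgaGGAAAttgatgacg
Pgf, first start, chr12:85177264-85177563, minus strand: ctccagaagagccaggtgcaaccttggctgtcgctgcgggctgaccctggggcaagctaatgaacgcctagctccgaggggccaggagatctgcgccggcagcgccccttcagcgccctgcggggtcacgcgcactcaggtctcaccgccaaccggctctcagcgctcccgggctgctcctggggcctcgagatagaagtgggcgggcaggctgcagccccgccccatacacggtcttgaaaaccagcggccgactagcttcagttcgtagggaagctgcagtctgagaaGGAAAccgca
Pgf, second start, chr12:85175933-85176232, minus strand: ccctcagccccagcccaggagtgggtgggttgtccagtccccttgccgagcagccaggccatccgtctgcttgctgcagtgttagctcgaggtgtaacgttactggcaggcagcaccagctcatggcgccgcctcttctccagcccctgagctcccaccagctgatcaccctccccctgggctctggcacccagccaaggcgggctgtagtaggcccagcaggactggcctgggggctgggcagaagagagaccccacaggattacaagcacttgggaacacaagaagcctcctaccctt
The table held 10 promoters for 8 of the members. GGAAA was in 6 of the 10, against 61.3% of all 32851 promoters of this length. The core of the hypoxia response element, ACGTG, was in 1 of the 10, against 19.6% of all. This was the stretch at chr17:46025114-46025413, at a downstream start of Vegfa. The stretch at the upstream Vegfa start, chr17:46032328-46032627, did not hold it. The AP-1 site TGANTCA (7.81% of all) and the STAT site TTCNNNGAA (8.30% of all) were in 0 of the 10. Each motif was searched on both strands, without regard to overlap with another motif. These are matches of letters and were not tested as sites.

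Esm1 was measured by a probe at chr13:114008204-114008263 (mm9), well above background on all 12 arrays. Before challenge, the log2 signal was -2.52, -0.32 and -1.38 on WT replicates 1, 2 and 3, and -2.64, -1.36 and -1.90 on smSocs3-KO replicates 1, 3 and 4. At day 3 it was 5.08, 4.99 and 1.08 on WT replicates 1, 3 and 4, and 2.18, 1.06 and 0.63 on smSocs3-KO replicates 2, 3 and 5. Every day 3 array was therefore above every array before challenge, and WT replicate 4 lay among the smSocs3-KO arrays of that day. The group means ran from WT at day 3 (3.72 ± 2.29) and smSocs3-KO at day 3 (1.29 ± 0.80) to WT (-1.405 ± 1.101) and smSocs3-KO (-1.97 ± 0.64) before challenge (SD, n = 3 each). The genotypes overlapped at both times, and no neighbours in this order of the same day were separated. In WT the difference between day 3 and before challenge was 5.12 on the log2 scale, a 34.8-fold difference, and it was 6.44 without WT replicate 4.

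The response of Esm1 to the challenge on the arrays labelled smSocs3-KO shares no array with the WT increase for which Esm1 headed the group. Earlier results of these data were known when the members were chosen, so it is not an independent test. Esm1 was higher by 3.26 on the log2 scale (SE 0.97, 95% interval 1.11 to 5.40, 9.55-fold) and missed the threshold (limma, adjusted p = 0.0906). Without WT day 3 replicate 4, which enters this test through the spread shared by all groups, the same difference passed (adjusted p = 0.0107), as it did when only the smSocs3-KO arrays were fitted (adjusted p = 0.0369). Within slide 2, with 2 arrays before challenge, the difference was 2.92 (adjusted p = 0.0765, and 0.242 with the slide in the model for all arrays). At day 3, the difference of Esm1 between smSocs3-KO and WT arrays was -2.43 on the log2 scale, a value given without a test because it draws on the WT response. It was -3.75 without WT replicate 4, -1.75 without WT replicate 1 and -3.44 with the slide in the model.

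**Figure D1:**
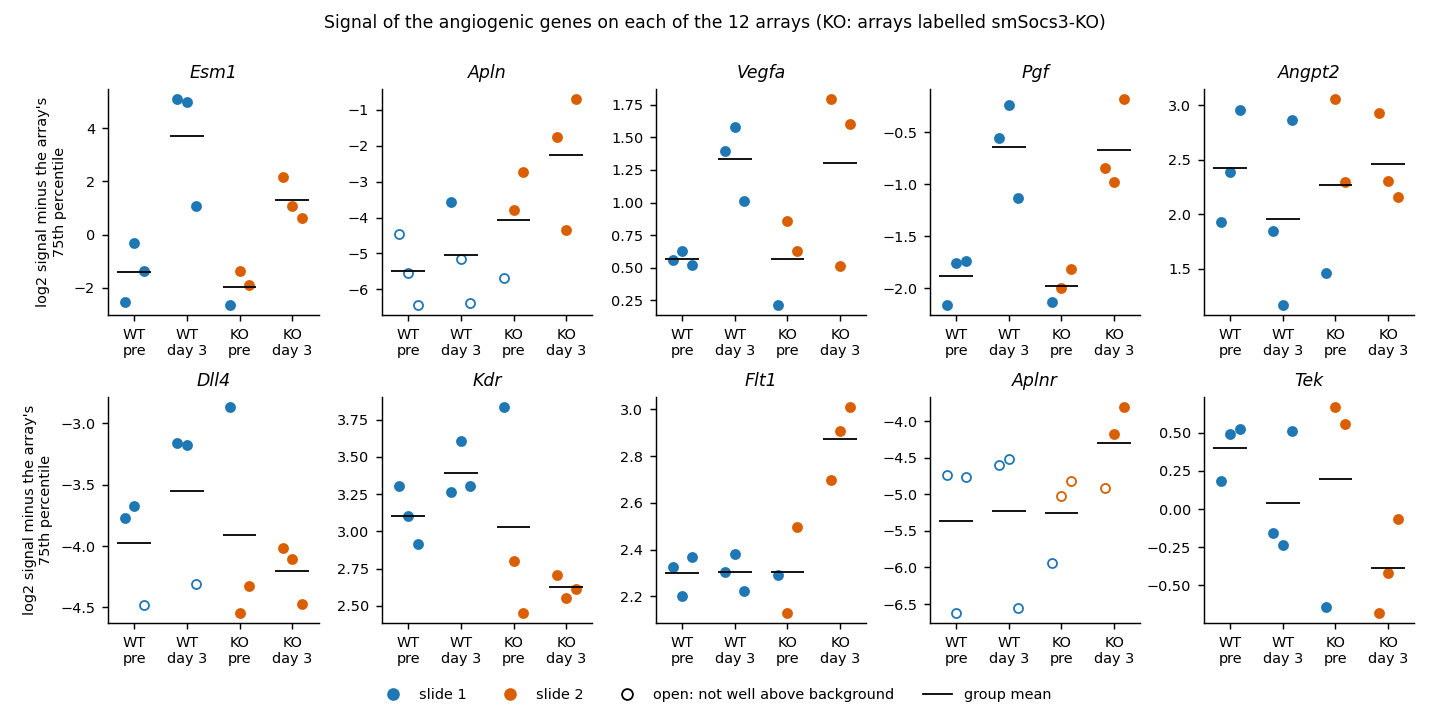
Log2 signal minus the 75th percentile of the array (vertical axis) for the 10 genes in the 4 groups; each point is an array, coloured by slide, open where the probe was not well above background, and the line is the group mean. Esm1 and Pgf lay higher on every day 3 array than on every array before challenge, whereas Flt1 was high only on the smSocs3-KO day 3 arrays.

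Among the ligands, Pgf, the placental growth factor, was the one member called in the smSocs3-KO challenge response. Its log2 signal before challenge was -2.16, -1.75 and -1.74 on WT replicates 1, 2 and 3 and -2.13, -2.00 and -1.82 on smSocs3-KO replicates 1, 3 and 4. At day 3 it was -0.56, -0.23 and -1.13 on WT replicates 1, 3 and 4 and -0.84, -0.98 and -0.18 on smSocs3-KO replicates 2, 3 and 5. The days did not overlap and the genotypes did. Pgf rose by 1.31 on the log2 scale (SE 0.27, 2.48-fold, adjusted p = 0.0384) on the arrays labelled smSocs3-KO, and it was 1.24 higher in WT. The call was lost under 14 of 24 alternatives while the direction held in all of them. Leaving out an array could not have turned it, because the days did not overlap. With the slide in the model the difference was 1.24 (adjusted p = 0.120). The interval of the day 3 difference between genotypes, -0.62 to 0.57, allowed a moderate difference either way.

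Vegfa, the principal growth factor for endothelium, was at 0.56, 0.63 and 0.52 on the WT arrays before challenge and at 1.40, 1.58 and 1.01 on those at day 3. On the arrays labelled smSocs3-KO it was at 0.22, 0.86 and 0.63 before challenge and at 1.79, 0.51 and 1.60 at day 3. Day 3 lay above the earlier arrays in WT, but smSocs3-KO replicate 3 stayed among the unchallenged arrays. The difference was 0.76 in WT and 0.73 on the smSocs3-KO arrays (SE 0.31, adjusted p = 0.186). Without smSocs3-KO day 3 replicate 3 the latter was 1.13 and passed (adjusted p = 0.0475), and without replicate 2 it was 0.49 (adjusted p = 0.409). The other kept Vegfa probe gave 0.34 and 0.38 (adjusted p = 0.588 for the latter over all kept probes).

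Apln, which encodes the peptide apelin, was dim. It was well above background on 0 of 3 WT arrays before challenge and 1 of 3 at day 3, so no fold is given for WT. On smSocs3-KO replicates 1, 3 and 4 before challenge it was at -5.68, -3.79 and -2.73, the first of these not well above background, and on replicates 2, 3 and 5 at day 3 it was at -1.75, -4.34 and -0.70. Replicate 3 at day 3 lay below 2 of the 3 earlier arrays. The difference of 1.80 (SE 1.05) was not called (adjusted p = 0.310) and came to 0.9997 with the slide in the model. The Apln probe was kept only because all 3 smSocs3-KO day 3 arrays were well above background. Tests of Apln against that group thus draw on the arrays that admitted it. Before challenge the slide 1 array labelled smSocs3-KO was below 2 of the 3 WT arrays, and no fold between genotypes is given.

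Angpt2 and Dll4 overlapped between days in both genotypes. Angpt2 ranged from 1.93 to 2.96 on WT arrays before challenge, from 1.17 to 2.87 on WT arrays at day 3, from 1.46 to 3.06 on smSocs3-KO arrays before challenge and from 2.16 to 2.93 on those at day 3. The smSocs3-KO response of Angpt2 was 0.20 (95% interval -0.88 to 1.27, adjusted p = 0.820). Dll4 was well above background on 10 of the 12 arrays, with group means of -3.97 and -3.55 in WT before and after challenge and -3.91 and -4.20 on smSocs3-KO arrays. Its smSocs3-KO response was -0.29 (95% interval -1.28 to 0.70, adjusted p = 0.706), and replicate 1 before challenge, the smSocs3-KO array on slide 1, was the highest of the 12 at -2.86.

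The receptors Flt1, Kdr and Tek were not called. Flt1 was at 2.33, 2.20 and 2.37 on WT arrays before challenge and at 2.30, 2.38 and 2.22 at day 3, a difference of 0.00. On smSocs3-KO arrays it was at 2.29, 2.13 and 2.49 before challenge and at 2.70, 2.91 and 3.01 at day 3. The smSocs3-KO day 3 arrays were above all 9 others. The smSocs3-KO response of 0.57 (SE 0.15, 1.48-fold) missed the threshold (adjusted p = 0.0699). It had a similar value of 0.56 within slide 2 and with the slide in the model (adjusted p = 0.167 for the latter). It passed without WT day 3 replicate 4 (adjusted p = 0.0486). A second Flt1 probe gave 1.15 (adjusted p = 0.0705 over all kept probes), and the remaining Flt1 probe was not well above background on any array.

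Kdr was at 3.30, 3.10 and 2.91 on WT arrays before challenge and at 3.26, 3.60 and 3.31 at day 3. On smSocs3-KO arrays it was at 3.84, 2.80 and 2.45 before challenge and at 2.71, 2.55 and 2.61 at day 3. The highest array, smSocs3-KO replicate 1, was the one on slide 1, and the other 2 of its group, on slide 2, averaged 2.63. The smSocs3-KO response was -0.40 (95% interval -1.06 to 0.25, adjusted p = 0.418), and with the slide in the model it was -0.00. A second Kdr probe gave -0.46 in WT and -0.57 on smSocs3-KO arrays, so that the probes differed in direction for WT.

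Tek was at 0.19, 0.49 and 0.52 on WT arrays before challenge and at -0.16, -0.23 and 0.51 at day 3. It was at -0.64, 0.67 and 0.56 on smSocs3-KO arrays before challenge and at -0.68, -0.42 and -0.06 at day 3. Both genotypes overlapped between days, and the smSocs3-KO response was -0.58 (95% interval -1.34 to 0.17, adjusted p = 0.313). Within slide 2 it was -1.002 (adjusted p = 0.126), and the day 3 difference between genotypes, -0.43, came to -1.68 with the slide in the model (adjusted p = 0.222). Aplnr was well above background on smSocs3-KO day 3 replicates 3 and 5 alone, at -4.17 and -3.80, while its other 10 arrays ranged from -6.62 to -4.52. On smSocs3-KO replicate 2 at day 3 it was at -4.91, below smSocs3-KO replicate 4 before challenge at -4.81. The groups thus overlapped, so no fold is given for Aplnr, and it was not tested.

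**Figure D2:**
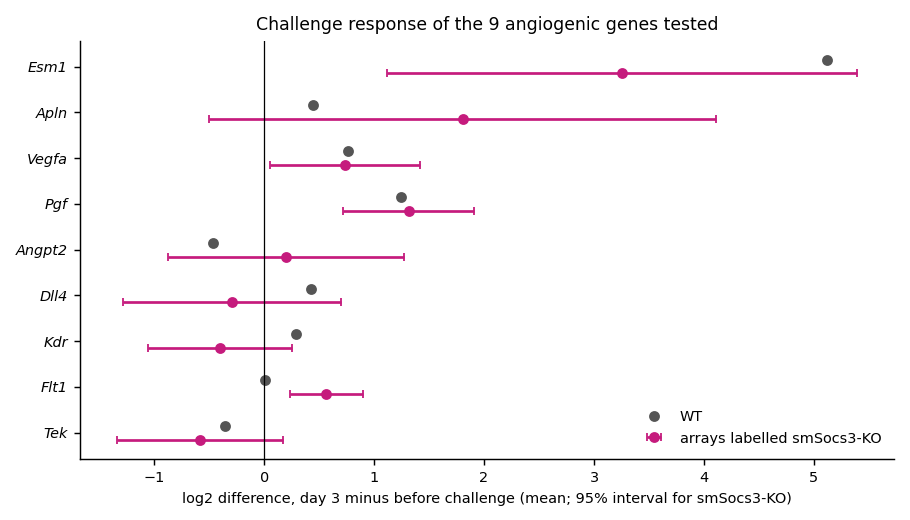
Log2 difference between day 3 and before challenge (horizontal axis) for the 9 genes tested, as the mean in WT and as the mean with its 95% interval from the model on the arrays labelled smSocs3-KO, 3 arrays a group. The intervals, which are not adjusted for the number of genes, lay above 0 for Esm1, Vegfa, Pgf and Flt1 and spanned 0 for Apln, Angpt2, Dll4, Kdr and Tek; Apln in WT was well above background on 1 of 6 arrays.

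Across the 9 members, 1 was called in the smSocs3-KO response, and it rose. Over all genes tested, 2.45% were called in this comparison, 1.71% higher and 0.733% lower. The days did not overlap for 3 of the 9, Esm1, Pgf and Flt1, all higher at day 3, while 28.1% of all genes did not overlap. The median difference of the 9 was 0.57, compared with -0.06 over all genes.

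The genotypes were compared over 8 members, without Esm1. Before challenge, 0 of 8 were called by limma, 0 had an unadjusted p under 0.05 and 0 had groups that did not overlap, while 0.0264% of all genes were called and 4.40% had an unadjusted p under 0.05. At day 3, 0 of 8 were called, against 1.11% of all genes (0.957% higher and 0.154% lower on smSocs3-KO arrays). An unadjusted p under 0.05 was found for 3 of the 8 (Apln, Kdr and Flt1), against 16.2% of all genes. Apln was kept only through the smSocs3-KO day 3 arrays, where it was highest, so its place in this count is not free of that selection. The groups of 2 of the 8 did not overlap at day 3, against 20.5% of all genes. These were Flt1, higher by 0.57 on smSocs3-KO arrays (adjusted p = 0.107), and Kdr, with a difference of -0.77 (adjusted p = 0.243). The second kept Flt1 probe gave 0.95. The second Kdr probe, with 10 spots against 1, gave 0.26, and its groups overlapped. With the slide in the model Flt1 was of similar size, at 0.55 (adjusted p = 0.340), while Kdr turned to 0.44 (adjusted p = 0.463). Apln was measured on 1 of 3 WT arrays at day 3, so no size is given for its difference (adjusted p = 0.233, and 0.930 with the slide in the model). That model separates slide from genotype by means of 1 array, smSocs3-KO replicate 1 before challenge. The difference between the challenge responses was called for 0 of 8 members, the lowest adjusted p being 0.914, and for 0% of all genes, although 1215 (5.34%) had an unadjusted p under 0.05. Among the members 1 of 8 did, Flt1, with 0.56 (95% interval 0.09 to 1.03).

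**Figure D3:**
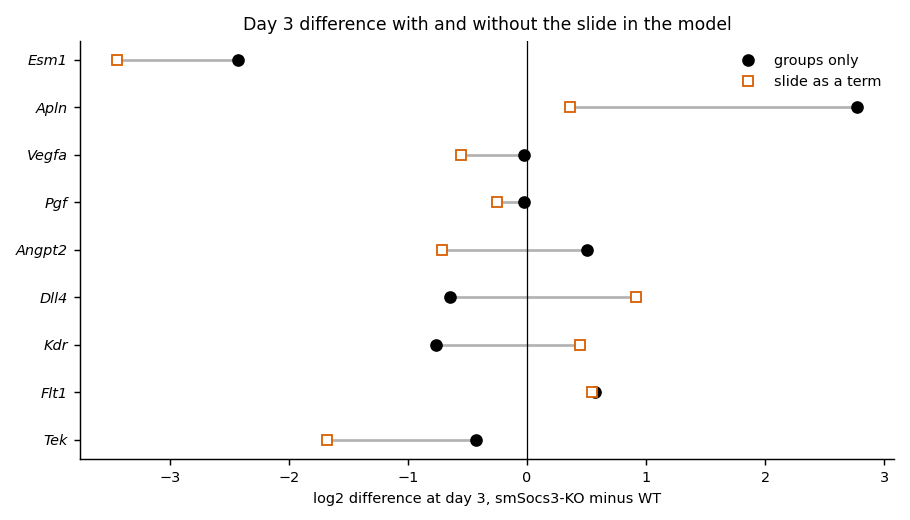
Log2 difference at day 3, smSocs3-KO minus WT (horizontal axis), for the 9 genes from the model with the 4 groups only (filled) and with the slide as a further term (open). Flt1 was close to 0.6 in both, while Angpt2, Dll4 and Kdr changed sign; the points of Apln rest on 1 of 3 WT arrays well above background at day 3.

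Of the other genes of the VEGF axis (Vegfb, Vegfc, Figf, Flt4, Nrp1 and Nrp2), 0 of 6 were called by limma in either challenge response, and 2 in WT and 3 on smSocs3-KO arrays had an unadjusted p under 0.05. Over all genes tested, 4.68% were called in WT, 3.58% higher and 1.09% lower, and the share with an unadjusted p under 0.05 was 26.6% in WT and 23.8% on smSocs3-KO arrays. Figf, the gene of the lymphatic growth factor Vegf-D, differed by 0.93 in WT and by 1.03 on smSocs3-KO arrays (adjusted p = 0.0714 in both). Nrp2, a co-receptor, differed by 0.72 and 0.91 (adjusted p = 0.159 and 0.115), and Nrp1 by 0.14 and 0.49 (adjusted p = 0.722 and 0.234). Vegfb gave -0.36 and -0.58, and Vegfc -0.08 and -0.18. Flt4 was well above background on 5 of 12 arrays, none of them WT, and no size is given for it. Of the angiopoietin-Tie list, 0 of 4 were called and 0 had an unadjusted p under 0.05 in either response. Angpt1, the agonist of Tek, gave -0.44 and -0.36, Angpt4 -0.07 and 0.05, the orphan receptor Tie1 0.50 and 0.53, and the phosphatase Ptprb 0.29 and 0.09.

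Of 13 other tip cell genes, 1 fell in WT and 0 were called on smSocs3-KO arrays, where 4 had an unadjusted p under 0.05. The one that fell was Trp53i11, by 1.04 on the log2 scale (adjusted p = 0.0387), with -0.79 on smSocs3-KO arrays (adjusted p = 0.0894). The medians of the 13 were 0.12 in WT and 0.19 on smSocs3-KO arrays, compared with -0.02 and -0.06 over all genes. The Notch list, which holds receptors, ligands and targets such as Hey1 and Hes1, had 0 of 10 called in either response (2 in each at an unadjusted p under 0.05), with medians of -0.04 and 0.04. Of 12 hypoxia response genes, 2 rose in WT and 0 were called on smSocs3-KO arrays, where 3 had an unadjusted p under 0.05. Those that rose were the glycolytic enzymes Pgk1, by 1.28 (adjusted p = 0.0334), and Ldha, by 1.07 (adjusted p = 0.0374). On smSocs3-KO arrays these genes differed by 1.04 (adjusted p = 0.0632) and 1.03 (adjusted p = 0.0503).

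**Figure D4:**
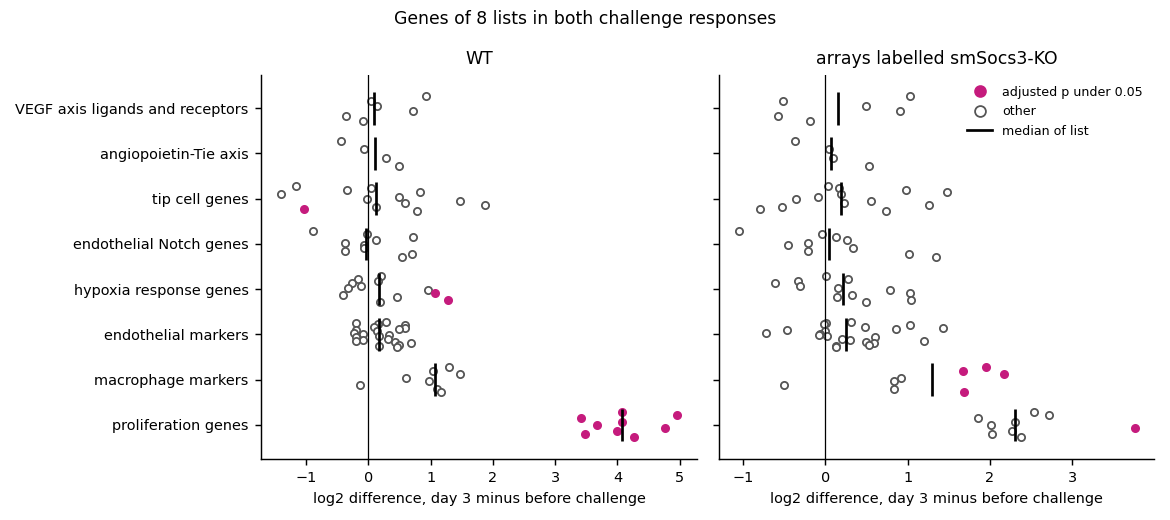
Log2 difference between day 3 and before challenge (horizontal axis) for the genes of 8 lists, in WT (left) and on the arrays labelled smSocs3-KO (right); a point is a gene, filled where the adjusted p was under 0.05, and the bar is the median of the list. All 9 proliferation genes were called in WT, while 0 of the VEGF axis, angiopoietin-Tie, Notch and endothelial genes were called in either response. The proliferation genes Cdk1 and Bub1 were kept only through the day 3 groups.

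The aortic samples hold many cell types, and in such tissue fewer cells of a type and less RNA per cell cannot be told apart. All 22 endothelial markers, among them Pecam1, Cdh5 and Vwf, were measured on all 12 arrays. Of these 22, 0 were called in either response by limma. An unadjusted p under 0.05 was found for 2 in WT and 6 on smSocs3-KO arrays, against 26.6% and 23.8% of all genes. The medians of the 22 were 0.17 in WT and 0.25 on smSocs3-KO arrays, and their mean at day 3 exceeded that of unchallenged WT by 0.04 to 0.41. Lymphatic markers had 3 of 6 genes measured, Prox1 not among them, and Lyve1, which some macrophages also carry, rose by 1.57 on smSocs3-KO arrays (adjusted p = 0.0303). Of 8 macrophage markers, 0 were called in WT, where 7 had an unadjusted p under 0.05, and 4 rose on smSocs3-KO arrays, namely Cd68 by 2.16, C1qa by 1.95, Mrc1 by 1.69 and Cd14 by 1.67 (adjusted p from 0.0379 to 0.0408). In each response 7 of the 8 had a positive difference and 1 a negative difference. The mean of the 8 at day 3 exceeded that of unchallenged WT by 1.07 to 1.56 on 5 of the 6 arrays and by 0.20 on WT replicate 4. For the 9 smooth muscle markers 0 were called (2 in WT and 6 on smSocs3-KO arrays at an unadjusted p under 0.05), and all 9 had a negative difference in both responses. Des in WT, at -5.8e-05 on the log2 scale, was in effect unchanged. Of 7 fibroblast markers, 1 rose in WT, Col3a1 by 0.74 (adjusted p = 0.0477), while 4 of the 7 had a negative difference there, with a median of -0.23. At day 3 Dpt and Pi16 were higher on smSocs3-KO than on WT arrays, by 1.99 and 1.64 (adjusted p = 0.0230 and 0.0467), while 2 of the 7 were lower. These groups lay on different slides, and 0 list genes were called at day 3 with the slide as a block. Of 5 fat cell markers, 0 were called and 0 had an unadjusted p under 0.05. The part of any of these cells in the levels of Esm1, Pgf or Flt1 was not tested.

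Proliferation genes had the largest median difference of the 12 other lists in both responses. All 9 that were measured rose in WT, with a median difference of 4.07. Cdk1, the mitotic kinase, was the only one called on smSocs3-KO arrays, where it rose (adjusted p = 0.0388) from a group in which 1 of 3 arrays was well above background, and all 9 had an unadjusted p under 0.05. In WT, Cdk1 and Bub1 were not well above background on any array before challenge and were at least 25.7-fold and at least 13.7-fold higher at day 3 (adjusted p = 0.0304 and 0.0279). For these bounds, the dim arrays were set at the lowest signal that was well above background on each, or at their own signal where higher. Cdk1 and Bub1 were kept only through the day 3 groups, where they were high. Their p-values, and their part in the counts of genes called, are therefore not free of that selection. The median on smSocs3-KO arrays was 2.30. With such genes at their bound the medians were 3.999 in WT and 2.269 on smSocs3-KO arrays. On WT day 3 replicates 1, 3 and 4 the mean of these 9 exceeded that of unchallenged WT by 5.01, 4.96 and 2.27, and on smSocs3-KO day 3 replicates 2, 3 and 5 it did so by 3.56, 2.28 and 1.80. Replicates 1 and 3 of WT were thus highest for this list as for Esm1, and smSocs3-KO replicate 5 was lowest of the 6 for both. Genes were ranked by the root mean square difference between their centred profile over the 12 arrays and that of Esm1. The ranking took tested genes outside the members with a value on every array and a RefSeq symbol or unambiguous synonym. The nearest of the 15682 genes compared were Cdca3 (0.603 on the log2 scale), Kif20a (0.617), Spag5 (0.625), Spc25 (0.625) and Pbk (0.646). Their values at day 3 minus before challenge were 4.56, 5.01, 4.72, 4.65 and 5.20 in WT and 2.84, 2.76, 2.63, 2.62 and 3.05 on smSocs3-KO arrays. Before challenge, Spag5 and Pbk were well above background on 1 of 3 WT and 2 of 3 smSocs3-KO arrays and Cdca3 on 2 of 3 smSocs3-KO arrays, so that these sizes are less certain. The nearest of the other members was Pgf, at 1.96, and the farthest was Apln, at 2.83. The measure follows the size of a change, and it is a description over arrays that share groups and slides.

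**Figure D5:**
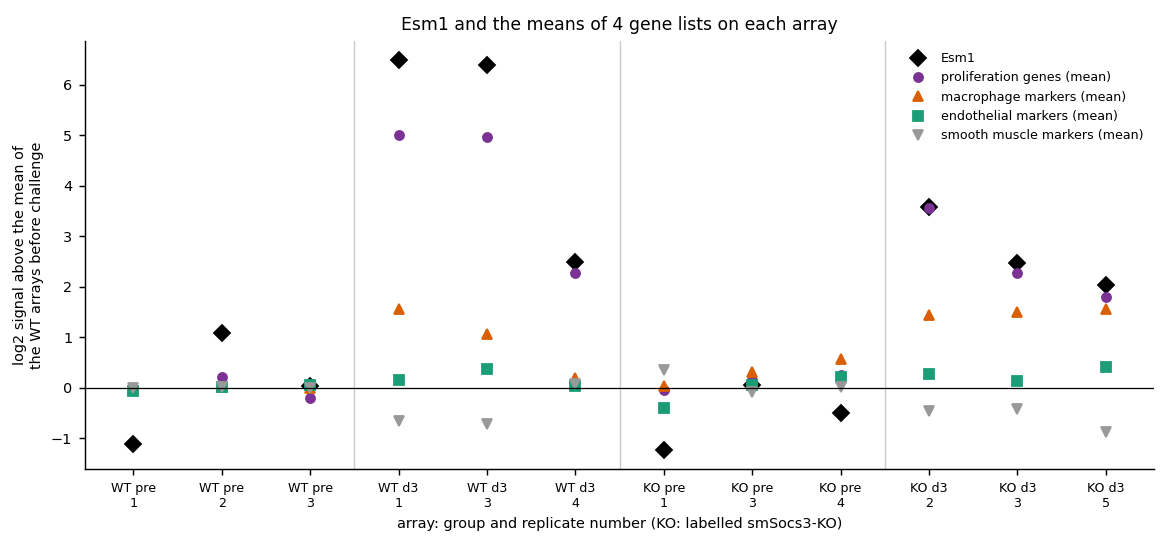
Log2 signal above the mean of the WT arrays before challenge (vertical axis) on each of the 12 arrays, for Esm1 (diamonds) and for the means of the proliferation, macrophage, endothelial and smooth muscle lists. Esm1 and the proliferation genes were highest on WT day 3 replicates 1 and 3, and the endothelial markers stayed within 0.41 of 0 on every array.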

How the data were processed

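The authors hybridised Cy3-labelled aortic RNA to one-colour Agilent arrays and deposited the scanner files. Their processed signal is a deposited intensity, linear and background-subtracted by Feature Extraction (10.7.1.1 per the file headers, 9.5.1.1 per the submitters' processing notes). Their table of processed intensity values, quantile normalized by the authors, was used as an alternative. Groups, replicate numbers and doses came from the labels.

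From the intensity, log2 was taken, outlier and control spots were dropped, replicate spots were averaged, and each array was set against its 75th percentile. The 32291 kept probes were those well above background throughout some group. The kept probe with the highest mean stood for its gene. The 4 group means were fitted with limma 3.58.1 (R 4.3.3), with Benjamini-Hochberg adjustment over all 22769 genes and a threshold of 0.05. The second probes of Vegfa, Kdr and Flt1 were fitted over all kept probes. In data simulated for the smSocs3-KO response over 22765 genes, 14, 43, 42 and 49 of 50 changed genes were called at log2 changes of 1, 2, 3 and 4, with 6 unchanged genes. Each simulated gene had the same mean in every group, with independent normal noise and no slide effect. Only the smSocs3-KO day 3 group was changed, so these counts do not cover effects of the slide.

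The members, the 12 other lists and the alternatives were chosen with earlier results of these data known. Besides the members and Socs3, genes were named if called in a challenge response (up to 4 a direction and list), if in the VEGF axis or angiopoietin-Tie list, or if among the 5 nearest to Esm1. Pecam1, Cdh5, Vwf, Hey1, Hes1, Prox1, Dpt and Pi16 were named in addition. Symbols are those of the array design. Probe positions are mm9. RefSeq GRCm38.p6 gave promoters, and no promoter of Aplnr or Angpt2 was used here.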

Additional observations from a re-analysis of the deposited data

Results flagged for a closer look

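Kdr differed in direction between the genotypes. Every WT array at day 3 was above the WT mean before challenge and every smSocs3-KO array at day 3 was below the smSocs3-KO mean before challenge, so that the smSocs3-KO response minus the WT response was -0.69 on the log2 scale. The test of this difference did not pass (limma, adjusted p = 0.970), and the second Kdr probe was lower at day 3 in both genotypes. The smSocs3-KO mean before challenge included 1 array on slide 1, at 3.84, and 2 arrays on slide 2, with a mean of 2.63.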

How the results depend on the processing

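The day 3 and baseline genotype comparisons and the interaction had 0 members called under each alternative run. In the smSocs3-KO response, with 1 of 9 members called as reported, 0 were called with the percentile over probes well above background, with no filter on dim probes, with the slide as a block, within slide 2 and with the replicate block. The count was 2 with the mean of all kept probes and with trended, robust variances, and it ranged from 0 to 3 when arrays were left out in turn, reaching 3 (Esm1, Pgf and Flt1) without WT day 3 replicate 4. List genes called in WT (13 as reported) were 0 with no filter, with only the groups compared and with the replicate block, and 0 to 34 when arrays were left out. In the smSocs3-KO response (6 as reported) they were 0 with no filter, the slide as a block, slide 2 alone and the replicate block, 12 with trended, robust variances and 0 to 28 when arrays were left out. At day 3 (2 as reported) they were 1 with the percentile over probes well above background and with no filter, 0 with only the groups compared, the slide as a block and the replicate block, and 0 to 11 when arrays were left out. The highest of each of these 3 ranges came without WT day 3 replicate 4. Over all genes, calls in WT (1065 as reported) were 3664 without that array, 10 with no filter and 0 with only the WT arrays fitted, and those on smSocs3-KO arrays (557) were 1897, 173 and 398.

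Directions turned for some members. In the smSocs3-KO response, Angpt2 was -0.21 and Dll4 0.23 with the slide as a block and within slide 2, and they ranged from -0.21 to 0.59 and from -0.60 to 0.23 when arrays were left out. At day 3, the slide as a block gave -0.71 for Angpt2 (0.50 as reported), 0.92 for Dll4 (-0.65) and 0.44 for Kdr (-0.77), and before challenge it gave -0.20 for Apln, which was higher on smSocs3-KO arrays as measured. Vegfa at day 3 was 0.0237 with the mean of its probes and 0.0757 with its other probe, and -0.27 to 0.36 when arrays were left out. Pgf at day 3 was -0.27 to 0.18 when arrays were left out, and Kdr was 0.26 with its other probe, an alternative chosen after seeing the data. The cause was not tested. Esm1 and Pgf kept their direction in both challenge responses under every alternative. For both genes every day 3 array lay above every earlier array, so leaving out an array could not have turned it. Esm1 also headed the group for its WT increase.

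Whether the replicate numbers pair the arrays could not be told. Over 11 same-numbered pairs the correlation of deviations from the group means ran from -0.40 to 0.46, and 4 were over 0.1. A pair with different numbers, WT day 3 replicate 3 and smSocs3-KO replicate 1 before challenge, reached 0.48. With the replicate block, the smSocs3-KO response was 1.95 for Esm1 (adjusted p = 0.666) and 0.80 for Pgf (adjusted p = 0.617), and 0 genes in WT and 2 on smSocs3-KO arrays were called over all genes. Signal over background limits Apln, Aplnr and Dll4.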
